A study of Mus musculus with 4 samples.

Results

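The Notch pathway was followed through 10 of its genes in the developing pontine nucleus of the mouse. They were 3 receptors (Notch1, Notch2 and Notch3), 4 ligands (Dll1, Dll3, Jag1 and Jag2) and 3 target genes (Hes1, Hes5 and Hey1), out of 19938 genes named on the array. Genes were chosen by symbol, and each of the 10 had exactly 1 probe set with a single gene symbol, so no choice between probe sets had to be made. The tissue was dissected from the ICR strain at embryonic day 17.5 (E17.5, 27 mice), postnatal day 1 (P1, 16 mice), postnatal day 5 (P5, 13 mice) and postnatal day 14 (P14, 12 mice). The mice of an age were pooled and hybridised to 1 Affymetrix array, so no age had a replicate and no test could be run. All values are the authors' normalised log2 signals, on which a difference of 1 is a 2-fold difference.

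Notch signalling passes between touching cells. A Delta or Jagged ligand on one cell binds a Notch receptor on its neighbour, the receptor is cut first by an ADAM protease and then by gamma-secretase, and its intracellular part enters the nucleus and joins the DNA-binding protein RBPJ and a Mastermind coactivator. The complex switches on Hes and Hey genes, which encode basic helix-loop-helix repressors that hold back proneural genes. In the embryonic brain the pathway keeps neural progenitors undifferentiated, later it favours astrocyte formation, and in blood vessels it acts in endothelial and mural cells. The pontine nucleus relays cortical signals to the cerebellum, and its glutamatergic neurons migrate to the ventral pons from the rhombic lip.

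The 4 arrays had nearly the same distribution, with medians from 7.89 to 7.94 over 35556 probe sets. All 6 markers of pontine neurons passed the level filter described below, and their mean level was 10.68 (E17.5), 10.34 (P1), 10.37 (P5 array) and 10.51 (P14 array). Lhx2 was under the filter level after E17.5 and the glutamate transporter Slc17a7 under it at E17.5. For P5 against P1, 4 of the 6 were lower and 2 higher, Slc17a7 and Slc17a6. The arrays did not follow their labelled ages: Pearson's r with E17.5 across 10901 genes was 0.968 for P1, 0.754 for the array labelled P5 and 0.909 for that labelled P14. Of 2120 genes with at least a 2-fold range, the value labelled P14 lay strictly between those of P1 and labelled P5 in 86.1%, while the P5 value fell inside the interval of P1 and P14 in 5.66%. Among the 10 Notch genes, of which 1 had a 2-fold range, the counts were 7 and 0, beside 60.5% and 12.9% of the 10901 genes. The labels are kept here as deposited, and of the comparisons below P1 against E17.5 alone rests on neither array. The spread between probe sets of 1 gene, taken over 645 genes, was the sole available error of a difference. Its standard deviation (SD) was 0.12 for P1 against E17.5, 0.18 for P5 against P1, 0.10 for P14 against P1 and 0.14 for P14 against P5, and it leaves out the spread between pools of mice. Directions of differences past 2 SD were alike as deposited, with arrays centred on their medians and after quantile normalisation. Centring each array on the median level of 10 housekeeping genes moved all genes together. The median difference between P5 and P1 became −0.99 there, against 0.05 as deposited. It did not level those 10 genes themselves, whose own median P5 minus P1 difference was 0.15 as deposited and −0.86 after it. Set against the median of the genes past the level filter under the same scaling, 39 of 40 differences of the Notch genes kept their sign, the exception being Notch1 for P5 against P1.

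A gene passed the level filter when its highest array reached 8.41, the middle value of the single-symbol probe sets over the arrays, and 8 of the 10 Notch genes did. Jag1, with a highest value of 8.25, and Hes1, with one of 8.16, did not, although both lay above the lower quartile of every array (6.42 to 6.53). Background was not measured, so the sizes of the differences of these 2 genes are inexact. The SD between probe sets was taken from probe sets past the filter level, so it does not cover these 2 genes. Notch2 passed through the arrays labelled P5 and P14 alone, where it was high, with 8.22 at E17.5 and 8.29 at P1. Dll3 was under the filter level on the array labelled P5 alone. Because signals of different probe sets are not on a common scale, levels were compared between arrays and not between genes. Medians and shares of filtered genes below refer to the 10901 genes past the filter. Over all 19938 genes the median differences were −0.03 for P1 against E17.5, −0.03 for P5 against P1, 0.02 for P14 against P1 and 0.04 for P14 against P5, so the sign of the last 3 depends on the filter.

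The promoter of Hes5 is shown because Hes5 is the classical brain target of the pathway and stood apart from the other targets in what follows. RefSeq promoters of the mouse assembly GRCm38.p6, reaching from 250 bases before to 50 bases after a transcription start, were found for 8 of the 10 genes, in 9 windows since Dll1 has a pair of starts. Hes1 and Hey1 were not matched. The core of the RBPJ site, TGGGAA on either strand, occurred in 1 of the 9 windows, that of Hes5, against 25.6% of all 32851 promoters. The N-box CACNAG, a site of Hes repressors, occurred in 4 of 9 windows on either strand, those of Notch1, Notch2, Notch3 and one Dll1 start, against 42.5% of all promoters. The 250 bases before the Hes5 start (chr4:154960673-154960922, plus strand) carry both RBPJ cores in capitals. The first, beginning 226 bases before the start, reads in the reverse direction, and the second begins 82 bases before it.
Hes5: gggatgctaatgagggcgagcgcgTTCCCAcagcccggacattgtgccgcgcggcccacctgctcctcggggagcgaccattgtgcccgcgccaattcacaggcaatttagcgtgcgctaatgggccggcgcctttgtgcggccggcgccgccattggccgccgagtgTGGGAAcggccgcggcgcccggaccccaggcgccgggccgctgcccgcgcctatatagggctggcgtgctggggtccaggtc
A match of letters is a description of the window, and binding was not measured.

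All 3 receptors had their lowest value at E17.5, though none of them did under the housekeeping centring. With each housekeeping gene centred on its own mean first, an alternative chosen after seeing the data, all 3 were lowest at E17.5. No receptor differed 2-fold between any arrays as deposited. Of the filtered genes 24.5% were lowest at E17.5, and of all genes 22.1%. Notch1, the receptor of neural progenitors and endothelium, stood at 9.77 (E17.5), 10.12 (P1), 10.20 (P5 array) and 10.16 (P14 array). As deposited, nearly its whole range of 0.43 therefore lay between E17.5 and P1, and the 3 postnatal arrays were within 0.08 of each other. Notch3, best known from vascular mural cells, stood at 8.94, 9.36, 9.19 and 9.45 in the same order. It too was lower at E17.5 than on every later array. The P1 minus E17.5 differences of Notch1 (0.35) and Notch3 (0.42) both exceeded 2 SD between probe sets (0.24).

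Notch2, a receptor of glia and other cell types, had the same order of arrays as Notch1, with its main step at another place. It stood at 8.22 (E17.5), 8.29 (P1), 8.86 (P5 array) and 8.72 (P14 array), so the 2 earlier arrays lay together and the 2 later ones lay together above them. Its P1 minus E17.5 difference was 0.07. Against P1 it differed by 0.57 on the array labelled P5 and by 0.43 on that labelled P14, both past 2 SD (0.35 and 0.21), though under the housekeeping centring they were −0.45 and 0.04. A constant shift of a whole array cancels from a comparison of 2 genes within arrays, and quantile normalisation moved these comparisons by at most 0.10. The Notch2 minus Notch3 difference shifted by 0.74 for P5 against P1 (SD 0.25) and by −0.35 for P1 against E17.5 (SD 0.17). The Notch2 minus Notch1 difference shifted past 2 SD for P14 against P1 alone as deposited, by 0.39 (SD 0.15). It shifted by −0.28 between P1 and E17.5, by 0.49 between P5 and P1, and by −0.10 between P14 and P5. After quantile normalisation the first 2 of these 3 shifts also passed, at −0.34 and 0.54. In bulk tissue, a different number of cells of a type and a different amount of RNA per cell cannot be told apart.

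**Figure D1:**
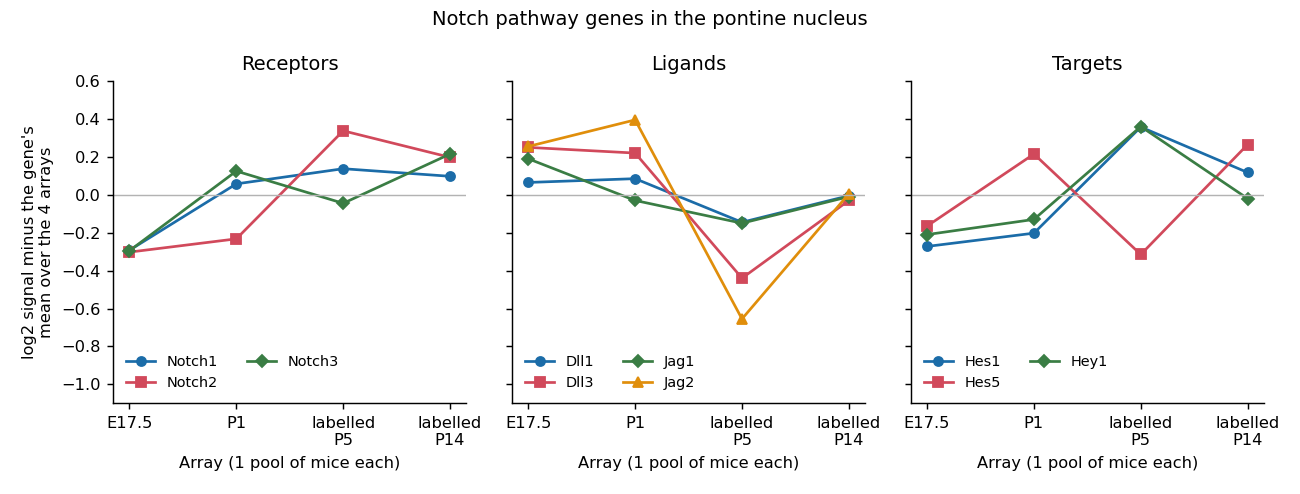
Log2 signal of each gene minus its own mean over the 4 arrays (y axis) on each array in the order of the labelled ages (x axis), in panels for receptors, ligands and targets, with 1 point per array and no error bars because no age has a replicate. As deposited, the 3 receptors are lowest at E17.5, the 4 ligands are lowest on the array labelled P5, and Hes5 runs opposite to Hes1 and Hey1 between P1 and the array labelled P5. Under the housekeeping centring no receptor is lowest at E17.5, and Notch1, Notch2, Hes1 and Hey1 are lower for P5 against P1. With each housekeeping gene centred on its own mean first, all 3 receptors are lowest at E17.5.

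All 4 ligands had their lowest value on the array labelled P5, by different amounts and under every scaling tried. That array was the lowest for 33.7% of the filtered genes and 40.8% of all genes. For Dll1 and Jag1 its distance from P1 was within 2 SD between probe sets as deposited. Jag2, a Jagged ligand, was the one gene of the 10 with a 2-fold range. It stood at 10.22 (E17.5), 10.36 (P1), 9.31 (P5 array) and 9.97 (P14 array). The array labelled P5 lay apart from the others, and without it the range of Jag2 was 0.39 in place of 1.05. The P5 minus P1 difference was −1.05, a 2.07-fold lower signal, and P14 minus P5 was 0.66. In the P5 against P1 comparison 12.9% of the filtered genes reached 2-fold either way and 3.94% did so downwards, so 1 of 10 genes is close to the general share.

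Dll3, a ligand that acts within the cell that makes it and inhibits Notch, went the same way with smaller differences. It stood at 8.84 (E17.5), 8.81 (P1), 8.15 (P5 array) and 8.56 (P14 array). The first 2 values were the same within 0.03, and the array labelled P5 was lowest, with a difference of −0.66 from P1. P14 minus P5 was 0.41, past 2 SD (0.28). Without the array labelled P5 its range was 0.28.

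Dll1 and Jag1 were nearly level across the arrays on the deposited scale. Dll1, the Delta ligand of newborn neurons, stood at 9.26 (E17.5), 9.28 (P1), 9.05 (P5 array) and 9.19 (P14 array). Its range of 0.23 was smaller than that of most genes, since 11.5% of the genes past the filter had a range as small or smaller. Jag1, the Jagged ligand of vessels and of many progenitor zones, stood at 8.25, 8.03, 7.91 and 8.05 in the same order. None of their differences in the 4 comparisons exceeded 2 SD between probe sets as deposited. Under the housekeeping centring, which moved all genes together, P5 minus P1 was −1.25 for Dll1 and −1.14 for Jag1, and P14 minus P5 was 0.77 for both.

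Within arrays, Jag2 differed from Jag1 past 2 SD in every comparison, with Jag1 under the level filter, while Dll3 and Dll1 stayed within 2 SD throughout. The Jag2 minus Jag1 difference shifted by −0.93 for P5 against P1 (SD 0.25) and by 0.52 for P14 against P5 (SD 0.20). For P1 against E17.5 it shifted by 0.36 (SD 0.17). The Dll3 minus Dll1 difference shifted by −0.43 for P5 against P1, which was within 2 SD (0.50). The 8 pairs of genes set against each other within arrays, in 32 comparisons, were picked after the values had been seen and are given as descriptions. Of the 32, 3 crossed 2 SD after quantile normalisation.

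Hes5 had a time course unlike that of Hes1 and Hey1, which shared their order of arrays. Hes5 stood at 9.84 (E17.5), 10.22 (P1), 9.69 (P5 array) and 10.27 (P14 array). As deposited it was high at P1 and labelled P14 and low on the other 2 arrays. The P1 minus E17.5 difference was 0.38, the P5 minus P1 difference −0.53 and the P14 minus P5 difference 0.58, each past 2 SD. P14 minus P1 was 0.05, which was within 2 SD (0.21). That difference was −0.34 under the housekeeping centring, where P1 minus E17.5 was 0.32, so the array labelled P14 was then about level with E17.5.

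Hes1, a repressor used by progenitors and by many cell types outside the brain, stood at 7.53 (E17.5), 7.60 (P1), 8.16 (P5 array) and 7.92 (P14 array). All 4 values lay under the level filter, and the array labelled P5 was highest. Hes1 differed by 0.56 for P5 against P1 and by 0.32 for P14 against P1, and both differences fell below 0 under the housekeeping centring. Hey1, a Hey repressor of vessels and glial progenitors, stood at 9.87, 9.95, 10.44 and 10.06 in the order of the labels. Its array labelled P5 lay above 3 values that were within 0.19 of each other, with 0.49 for P5 against P1, again below 0 under the housekeeping centring. Within arrays, the Hes1 minus Hes5 difference shifted by 1.09 and the Hey1 minus Hes5 difference by 1.02 for P5 against P1 (SD 0.25), or by 1.19 and 1.03 after quantile normalisation. For P14 against P5 they shifted by −0.82 and −0.96 (SD 0.20). The Hey1 minus Hes1 difference shifted most for P14 against P1, by −0.21, and stayed within 2 SD in all 4 comparisons.

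Around birth, the comparison that rests on neither doubtful array, the differences of the 10 genes were all under 1.5-fold. For P1 against E17.5 none of the 10 was at least 2-fold apart, beside 1.10% of the 10901 genes past the filter, and none was at least 1.5-fold apart, beside 6.13%. Their median difference was 0.08, and that of the filtered genes was −0.06. By sign, 8 of the 10 were higher and 2 lower, beside 42.3% of all genes and 38.5% of filtered genes higher. Notch1, Notch3 and Hes5, 3 of 10, were higher by more than 2 SD, and none was lower by as much, beside 14.5% of filtered genes higher and 21.6% lower. The largest, that of Notch3, was as large as or larger than 93.2% of those of the filtered genes. For Hes5 and Notch1 this share was 92.0% and 91.0%.

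The array labelled P5 differed from P1 for more of the genes, as it did for the whole transcriptome. Of the 10 genes, 6 differed by more than 2 SD, with Notch2, Hes1 and Hey1 higher on the deposited scale and Dll3, Jag2 and Hes5 lower. Without Jag1 and Hes1, which this SD does not cover, 5 of the 8 genes past the filter did, beside 50.9% of filtered genes. At 1.5-fold, 2 of 10 passed, Jag2 and Dll3, beside 31.3%. The median of the 10 was −0.15, and that of the filtered genes was 0.05. By role the medians were 0.08 for receptors, −0.45 for ligands and 0.49 for targets.

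Between P14 and P1, whose arrays correlated at r = 0.966, none of the 10 was 2-fold apart, beside 1.47% of filtered genes. By more than 2 SD, 4 of 10 differed, and 3 of the 8 past the filter, beside 40.2% of filtered genes. Notch2 (0.43) and Hes1 (0.32) were higher on the array labelled P14, and Dll3 (−0.25) and Jag2 (−0.39) were lower. Under the housekeeping centring Notch2 was at 0.04, within 2 SD, and the other 9 were below 0. As deposited the median of the 10 was 0.04, and that of the filtered genes −0.01. Between P14 and P5 none of the 10 was 2-fold apart, beside 6.66% of filtered genes, and 2 of 10 (Jag2 and Hes5) were 1.5-fold apart, beside 20.3%. At 2 SD, 4 of 10 passed, all of them among the 8 genes past the filter, beside 48.3%. Jag2, Hes5 and Dll3 were higher and Hey1 (−0.38) was lower, the last above 0 under the housekeeping centring. The median was 0.14 for the 10 genes and −0.07 for the filtered genes. P1 and the array labelled P5 each enter several of these comparisons, so they are not independent of one another.

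**Figure D2:**
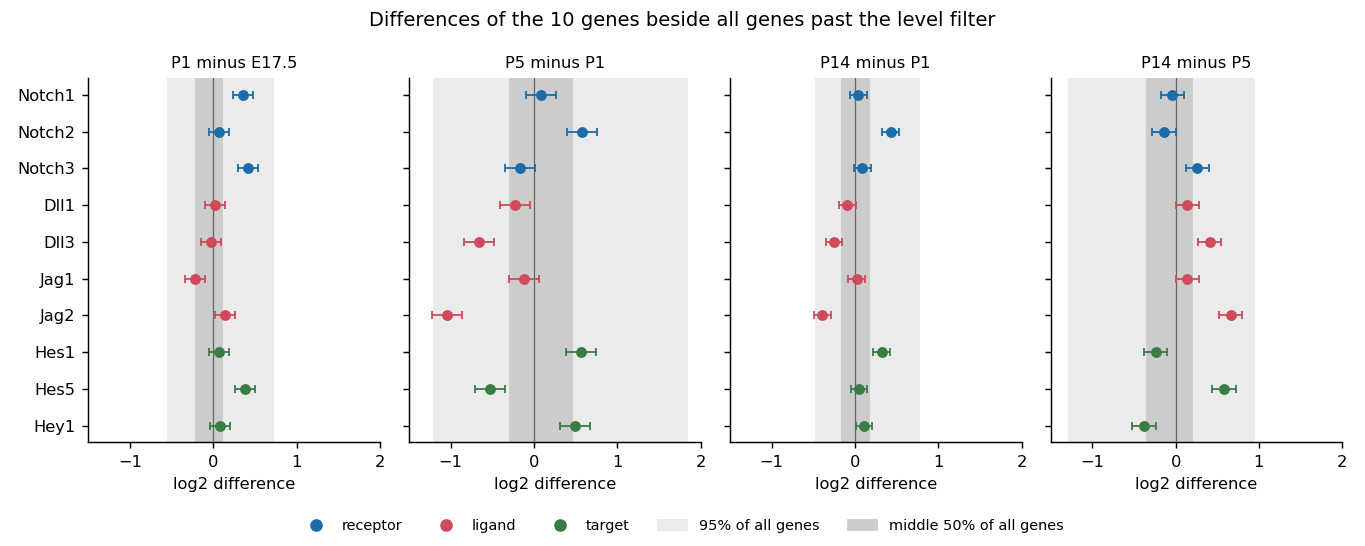
Log2 difference of each gene (points, coloured by role) in the 4 comparisons, with bars of 1 SD between probe sets of a gene, over grey bands that hold the middle 50% and 95% of the 10901 genes past the level filter. All 40 points lie inside the 95% bands, with Jag2 at −1.05 for P5 minus P1 near the lower end of a band from −1.20 to 1.84. Under the housekeeping centring the points and bands of P5 minus P1 shift down together.

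Genes with profiles close to that of Jag2 were sought among 10476 genes, those past the filter once small RNAs, Olfr and Vmn receptors and predicted or unnamed genes had been left out. Cep112, Eid1 and Dab2ip were nearest to it, with root mean square differences between mean-centred profiles over 4 arrays of 0.0334, 0.0335 and 0.0415 log2 units. Eid1, which encodes an inhibitor of differentiation that binds EP300, stood at 10.89 (E17.5), 11.00 (P1), 9.92 (P5 array) and 10.67 (P14 array). In all, 98 of them lay within 0.1 of the Jag2 profile.

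Other genes of the pathway were read from lists of 65 symbols, of which 62 were named on the array and 52 passed the filter. Between P1 and E17.5, 2 of the 62 were at least 2-fold apart, both lower, beside 0.667% of all 19938 genes. Of these 2, Nhlh1 passed the filter through its E17.5 value alone. Nhlh1, a helix-loop-helix factor of newly born neurons, stood at 10.02 (E17.5), 6.07 (P1), 5.75 (P5 array) and 6.23 (P14 array). Its signal was high at E17.5 alone and lay under the lower quartile of the arrays after that, so no fold is given. Tle1, a Groucho corepressor through which Hes proteins silence genes, stood at 10.30, 8.54, 8.68 and 8.17 in the same order, a difference of −1.76 for P1 against E17.5. Here too E17.5 lay apart from the other 3 arrays.

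Against P1, the array labelled P5 had 2 of the 62 genes past 2-fold upwards and 1 downwards, beside 7.95% of all genes in either direction. Neurl1b, a Neuralized ubiquitin ligase, a family that acts on Notch ligands, stood at 10.27 (E17.5), 10.52 (P1), 8.85 (P5 array) and 10.39 (P14 array). The array labelled P5 lay far below the others, with −1.67 against P1, and the gene's other probe set had a difference of −1.32. Neurl1b was also the one gene of the 62 at least 2-fold apart between P14 and P5, at 1.54, beside 4.05% of all genes. Fbxw7, the F-box protein that marks the Notch intracellular domain for degradation, stood at 8.57, 8.70, 9.96 and 9.04 in the order of the labels. Its P5 minus P1 difference was 1.26, and its other, dimmer probe set had 0.71. Under the housekeeping centring it was 0.25. Heyl, a Hey repressor of mural cells and glia, stood at 8.89, 9.04, 10.06 and 9.19, with 1.02 for P5 against P1. Heyl and Fbxw7, like Hey1 and Hes1, had their highest deposited value on the array labelled P5, and the P5 minus P1 difference of Heyl was 0.97 after quantile normalisation and 0.01 under the housekeeping centring. For P5 against P1, of the 10 listed targets besides Hes1, Hes5 and Hey1, Heyl alone was higher by more than 2 SD (0.35). Hes6 (−0.53) alone was lower by as much. By sign, 2 of the 10 were higher, Heyl among them, and 8 lower. Their median was −0.13, and 52.6% of all genes were lower. None of the 62 was 2-fold apart between P14 and P1, beside 0.908% of all genes.

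Processing enzymes and Rbpj lay within 2-fold throughout. All 9 processing enzymes named on the array passed the filter, and their differences ran from −0.39 to 0.12 for P1 against E17.5 and from −0.40 to 0.62 for P5 against P1. Chosen after the values had been seen, Rbpj, the DNA-binding partner of Notch, stood at 10.13 (E17.5), 9.42 (P1), 9.70 (P5 array) and 9.20 (P14 array), a difference of −0.71 for P1 against E17.5. A second Rbpj probe set lay between 5.99 and 6.21 on all arrays, under their lower quartiles, and gave no second measurement. The 10 other genes listed as targets were Hes2, Hes3, Hes6, Hes7, Hey2, Heyl, Nrarp, Sox9, Id1 and Id3, and 7 of them passed the filter. Of the 10, 8 had a higher value at P1 than at E17.5 and 2 a lower one, with a median of 0.11 and none 2-fold apart. Of all genes 42.3% were higher and 55.7% lower. Of 8 proneural and related factors, of which 4 passed the filter, 6 were lower at P1 and 2 higher, with a median of −0.23. For P5 against P1 all 8 were lower, the median was −0.35, and none was 2-fold apart, while 52.6% of all genes were lower. The median was −0.26 after quantile normalisation. Neurod1 and Nhlh1 lay under the lower quartile on both arrays, so their differences are inexact.

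**Figure D3:**
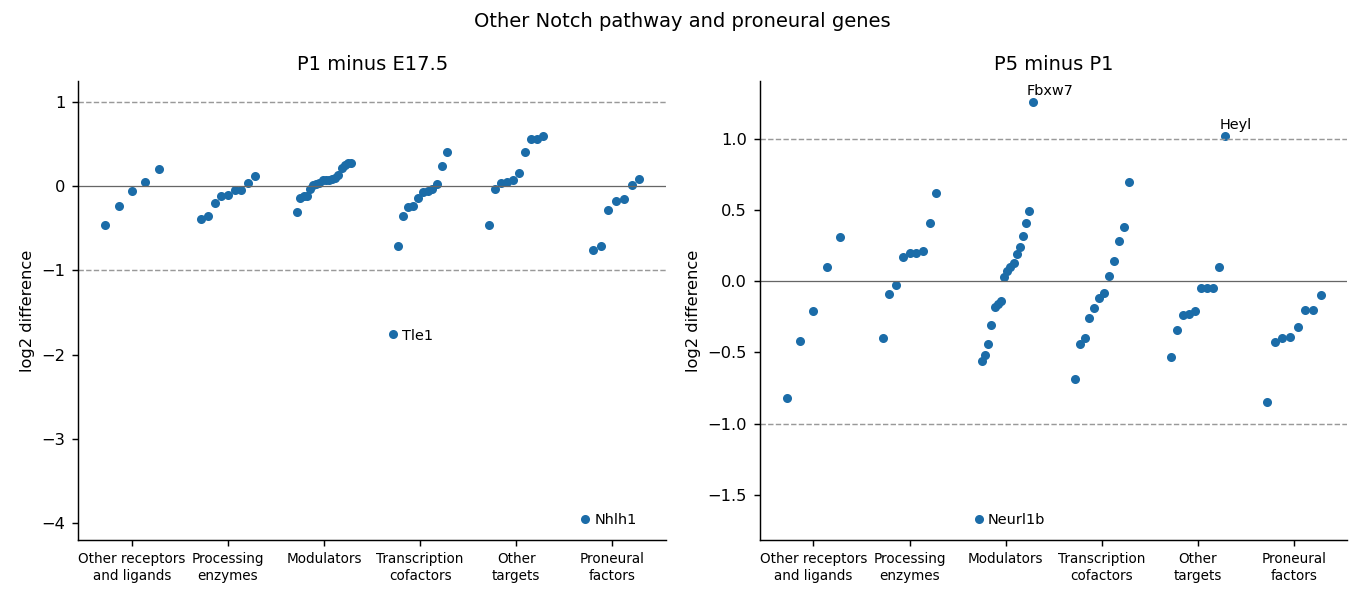
Log2 difference of the 62 other pathway and proneural genes (1 point each) for P1 minus E17.5 and P5 minus P1, grouped by role, with dashed lines at 2-fold and names for the genes past them. Tle1 and Nhlh1 lie below the line for P1 minus E17.5, and for P5 minus P1 Fbxw7 and Heyl lie above and Neurl1b below it, with Fbxw7 at 0.25 and Heyl at 0.01 under the housekeeping centring.

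Markers of the cells that carry Notch genes also differed between the arrays. The mean level of 12 astrocyte markers was 9.37 (E17.5), 10.19 (P1), 11.56 (P5 array) and 10.90 (P14 array), and all 12 were lowest at E17.5 as deposited, as were the 3 receptors. Astrocytes were not alone in this. All 9 microglial markers, 8 of 9 oligodendrocyte precursor markers and all 11 myelin markers (Mobp tied with P1) were lowest there too. So were 4 of 10 mural and 3 of 11 endothelial markers. Of the myelin markers, Mog, Mal, Ermn and Opalin passed the level filter through the array labelled P5 alone. Ermn and Opalin lay under the lower quartile of the arrays at E17.5 and P1, so their order there is inexact. The 10 mural cell markers averaged 8.49, 8.42, 9.14 and 8.84, and all 10 were higher for P5 against P1 as deposited, at a median of 0.69. Of these, 7 passed the level filter. Beside them, 46.4% of all genes and 53.7% of filtered genes were higher. Notch3 and Heyl are both genes of mural cells, and their P5 minus P1 differences were −0.17 and 1.02. The 11 endothelial markers averaged 8.86, 8.85, 9.52 and 9.18, all 11 higher for P5 against P1 as deposited, and 10 of them passed the filter. Under the housekeeping centring the medians of these 2 vascular lists were −0.32 (mural) and −0.53 (endothelial). With each housekeeping gene centred on its own mean first, they were 0.54 and 0.34.

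Young neuron markers lay the other way. Their mean over 10 genes was 12.31 (E17.5), 11.62 (P1), 9.80 (P5 array) and 11.00 (P14 array), with all 10 lower for P5 against P1 and 9 of 10 lowest on the array labelled P5, as were the 4 ligands and Hes5. Nhlh1 is among the 10, and its values after E17.5, under the lower quartile of the arrays, pull the later means down. The list's median difference was −0.18 for P1 against E17.5 and −1.51 for P5 against P1. Of the filtered genes, 45.6% were lower for P5 against P1 and 33.7% were lowest on the array labelled P5. The 10 progenitor markers averaged 10.38, 10.36, 9.92 and 10.25, with 8 of 10 lower for P5 against P1 and 7 of 10 lowest on the array labelled P5. Myelin markers had the widest range, at 7.54, 7.98, 12.47 and 8.94 over 11 genes. None of 7 ependymal and choroid plexus markers passed the level filter. The part of these cell types in the differences of the Notch genes was not tested.

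**Figure D4:**
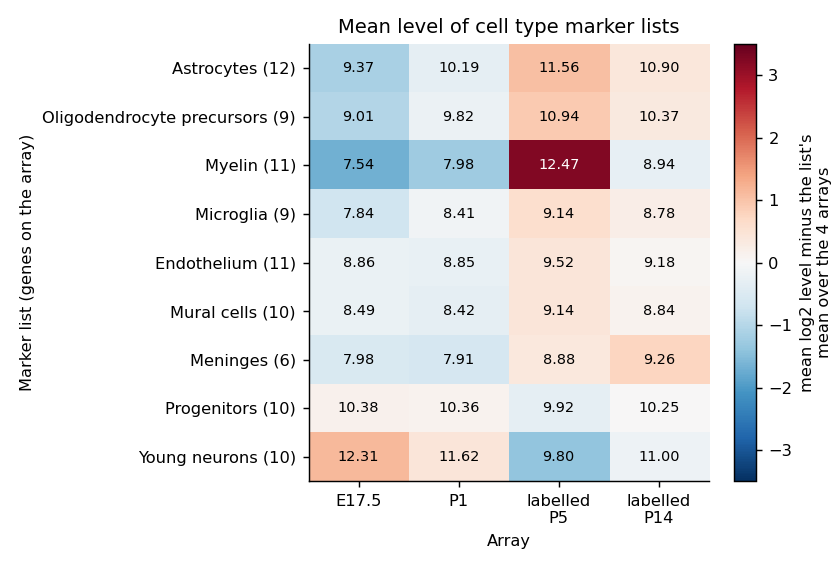
Mean log2 level of 9 cell type marker lists on each array (numbers in the cells), coloured by the distance from the list's own mean over the 4 arrays, with the number of genes on the array in brackets. Glial, vascular and meningeal lists are higher for P5 against P1 as deposited (vascular, microglial and meningeal ones lower under the housekeeping centring), and the young neuron list is lower, at 9.80 against 11.62.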

How the data were processed

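The deposited values are log2 signals, 1 per probe set and array, which the authors produced with Affymetrix Expression Console, per the submitters' processing notes. Its version, the way probes were summarised and the kind of normalisation are not stated by the sources used here. That the scale is log2 was inferred from the range of the values (1.84 to 14.72). Per the labels, the RNA was total RNA, copied into sense-strand cDNA and labelled with biotin. Precision is limited by having 1 array per age.

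The platform's gene table listed 23410 of the 35556 probe sets, 21789 with 1 symbol and 1621 with several, and 12146 were not named here. Entrez identifiers of 21698 matched RefSeq (GRCm38.p6, used for names and promoters). For the 19938 genes, the probe set with the highest mean stood for a gene. Differences of log2 values, counts at 2-fold (1) and 1.5-fold (0.58), and SDs between probe sets were computed with Python 3.11.15 and pandas 2.3.3, and the scripts were tested on simulated data. Alternatives were the mean of probe sets, other centring, quantile normalisation, no level filter and the 1.5-fold threshold. All 10 genes are named, with list genes at least 2-fold apart and the 3 genes nearest to each Notch gene of 2-fold range. The genes and lists were chosen with earlier results of these data known.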

Additional observations from a re-analysis of the deposited data

How the results depend on the processing

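Of 52 recomputed medians and counts of the 10 genes, 45 stayed within 1 SD between probe sets (medians) or 1.5 times (counts). Centring on the median level of 10 housekeeping genes gave the largest shifts. Medians became −1.16 for P5 against P1, −0.34 for P14 against P1 and 0.77 for P14 against P5, and the 2-fold counts became 6 (P5 against P1) and 3 (P14 against P5). Genes past the filter moved with them, with medians of −0.99, −0.41 and 0.58, and 51.0% of them were 2-fold apart between P5 and P1. Splits of filtered genes into higher and lower under it were 74 and 41 for P1 against E17.5 (as deposited 90 and 30), 200 and 5597 for P5 against P1 (977 and 429), 36 and 108 for P14 against P1 (149 and 11) and 1723 and 152 for P14 against P5 (235 and 491). With each housekeeping gene centred on its own mean first, an alternative chosen after seeing the data, the medians of the 10 were 0.07, −0.30, −0.04 and 0.20, the 2-fold counts stayed at 0, 1, 0 and 0, and the P5 against P1 split was 751 and 635. Under that alternative P5 minus P1 was 0.42 for Notch2, 0.41 for Hes1, 0.34 for Hey1, 0.87 for Heyl and 1.11 for Fbxw7. At 1.5-fold, on the deposited values, the count was 2 both for P5 against P1 and between P14 and P5. Of 240 recomputed differences of single genes, 30 moved by more than 1 SD, all under the first housekeeping centring, and 15 of 40 differences took the other sign under at least one alternative. Each of the 10 genes has 1 probe set. The mean of probe sets and the dropped level filter therefore could not change their values, and the 52 and the 240 both include such fixed values. No paired analysis was possible because each age has 1 array. Differences under 2 SD between probe sets cannot be told from probe noise, and the spread between pools could not be measured for any value.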
